A study of Mus musculus with 17 samples.

Results

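The hearts described here are those of mice subjected to transverse aortic constriction (TAC), a surgical narrowing of the aorta that loads the left ventricle with pressure, and treated with 29P or with vehicle. They gave 9 of the 17 libraries of the series, 6 from TAC 29P hearts (S1, S3, S8, S9, S11 and S18) and 3 from TAC Veh hearts (S2, S12 and S16), chosen by the treatment and surgery in their titles. The other libraries, 3 Sham 29P and 5 Sham Veh, entered the same linear model and are named only where a comparison needs them. All animals were male C57Bl/6J mice of 7 to 8 weeks at surgery, with no genetic modification stated, and RNA came from the apex of the left ventricle 3 weeks after surgery. 29P is an oral prodrug of a cyclic peptide that mimics the RGD motif and binds the integrin αvβ3. It was given by gavage at 50 µg/kg in 6 doses that began after the constriction was in place, and Veh mice received saline instead. The study left out libraries of low depth and a TAC Veh library that clustered with Sham hearts, which narrows the Veh group as a model of pressure overload. Each library has its own animal number in the labels, so the p-values measure the spread between single hearts of 1 study.

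Integrins are paired α and β chains that tie the cell to its matrix, and αvβ3 recognises the RGD sequence of fibronectin, vitronectin, osteopontin and related proteins. It is found on activated endothelium, fibroblasts, macrophages and platelets. A heart under pressure overload typically enlarges its myocytes, deposits matrix, recruits macrophages and shifts its fuel use from fatty acids towards glucose. The genes of fatty acid use are governed in large part by PPARα, a nuclear receptor that responds to fatty acids. Collagens and the mitochondrial beta-oxidation enzymes are left aside here so that other functions can be described.

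Estimated depth was 15.9 to 22.4 M reads in the 9 TAC libraries, and mitochondrial-encoded transcripts took 23.6 to 29.4% of each. Ventricular transcripts were high in every TAC library, with Myl2, the ventricular regulatory light chain, at 4107 to 5152 CPM (reads per 1 M of the library total). The library 29P S18 stood apart. It held 335.5 CPM of Myl7, 518 CPM of Myl4 and 161.5 CPM of Sln, all transcripts of atrial muscle, where the other 8 TAC libraries reached at most 1.0, 4.43 and 0.317 CPM, and Bmp10 stood at 514 CPM in S18 and at 0 in the others. The Sham Veh libraries S19 and S20 also carried atrial transcripts, with Myl7 at 895 and 723 CPM. S18 had the lowest levels of the endothelial transcripts Cdh5 (194 CPM) and Tie1 (77.1 CPM) among the TAC libraries. For Kdr it was close to Veh S12, with 178.4 against 179.4 CPM. For Pecam1 S18 was not the lowest, with 230 CPM against 209.7 CPM in Veh S12. The S18 means of adipocyte and of Schwann and nerve markers were the highest of the TAC libraries, 2.71 and 0.94 log2 units above the Veh mean. Adipoq stood at 2.01 CPM in S18 and at most at 0.15 CPM in the other TAC libraries. The 11 atrial markers tested summed to 2177 to 4565 CPM in TAC Veh and 647.6 to 4455 CPM in TAC 29P, most of it Nppa, and none passed the threshold defined next. Among the other marker lists all 7 red blood cell genes and 1 of 8 Schwann and nerve genes passed, and none of the ventricular, adipocyte, mesothelial, skeletal muscle, lymphatic endothelial or lymphocyte and neutrophil markers. Where leaving out S18 ended a call on a gene named here, the value without it is given.

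Across 16218 genes tested, 29P treatment of TAC mice went with 154 higher (0.95%) and 180 lower (1.11%) genes at an unadjusted limma p of at most 0.05. Together they made 2.06% of the genes tested, fewer than the 5% that this threshold passes when no gene differs. No gene passed after Benjamini-Hochberg adjustment, and the lowest adjusted p in limma was 0.959. For 296 genes (1.83%) the 6 and 3 libraries did not overlap. The median log2 fold change over all genes was −0.02, its quartiles were −0.13 and 0.08, and 55.4% lay below 0. In what follows "rose" and "fell" mean past the unadjusted threshold of limma, differences are log2 fold changes with their standard errors, each gene group is given by its count of such members and its median, and the adjusted p of every gene named for 29P within TAC was 0.959 or higher. Of 55 functional lists, 16 had no member past the threshold and 17 had 1. The shares to set beside every list count are the 0.95% higher and 1.11% lower of all genes. The lists were written with earlier results of these data known, and some genes sit in several lists. The counts therefore describe the lists and are no test of them, and the lists do not count as independent of each other.

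The 30 genes chosen by size were led by Acot1 and Per1. They are the 15 largest rises and the 15 largest falls among genes past the threshold, at 1 CPM or more, and with no overlap between the groups, a choice made on the contrast itself. The lack of overlap in these 30 was thus a condition of the choice. It also keeps the p of an exact permutation of the 9 TAC libraries at or near its lowest possible value. Neither is separate evidence for a gene of the 30. Of the 15 rises, 7 stayed past the threshold whichever of the 9 TAC libraries was left out (Acot1, Aqp4, Aif1l, Ces1d, Adra1b, Whrn and Ddc). Of the 15 falls, 3 did so (Per1, BE692007 and Ackr4). Leaving out the library Veh S16 removed 18 of the 30 from the calls, while leaving out 29P S18 removed 2. Animal numbers fall into 4 runs in the labels, and 5 of the 6 29P libraries but only Veh S2 belong to the first, so run and treatment are unbalanced. No other run holds libraries of both TAC groups, so the run covariate is no check on calls that need Veh S2. The libraries with atrial transcripts, S18, S19 and S20, are the only members of 1 run, so their atrial content and their run cannot be told apart. With the run as a covariate 8 of the 15 rises and 5 of the 15 falls stayed past the threshold, and Whrn, at 0.62, did not. Of the 68 further list members past the threshold, marker lists included, 7 stayed past it in all 9 omissions and 29 with the run covariate.

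**Figure D1:**
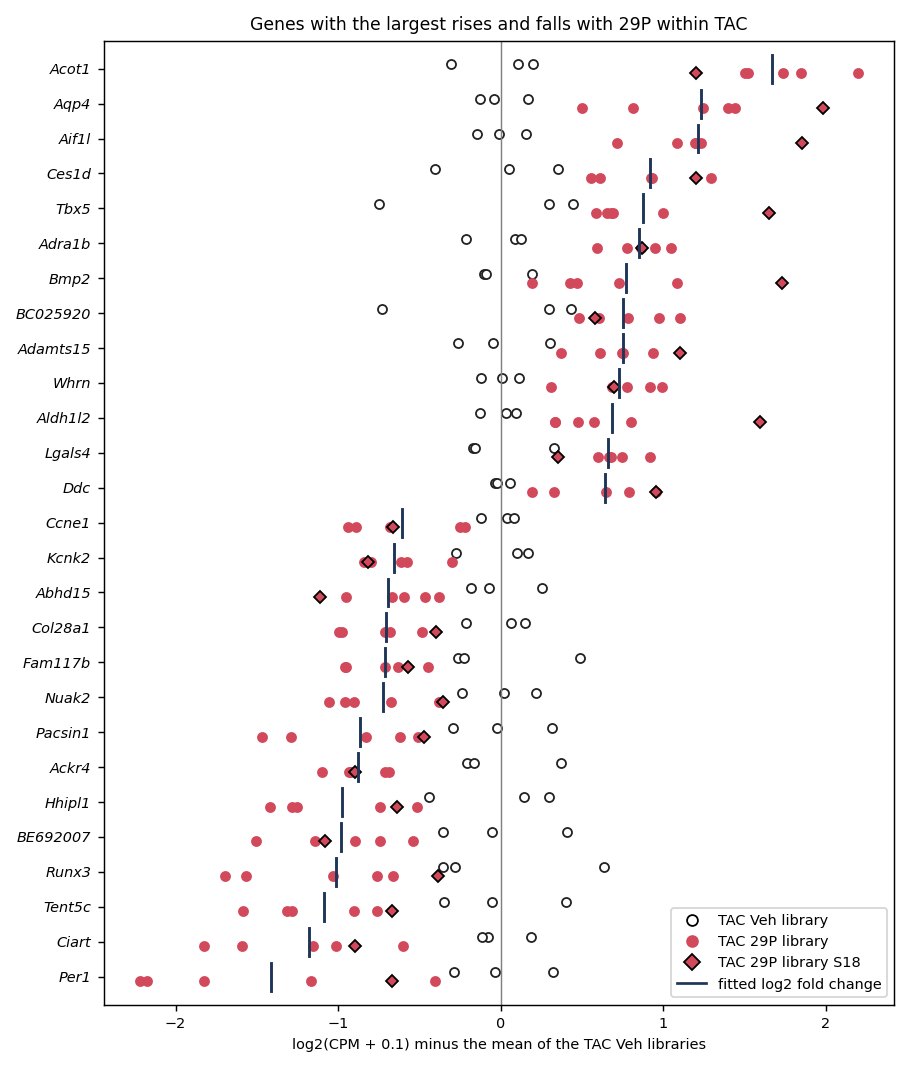
Log2 of CPM plus 0.1 minus the mean of the TAC Veh libraries (x axis) for 13 of the 15 largest rises and 14 of the 15 largest falls (rows), with open circles for Veh libraries, filled circles for 29P libraries, a diamond for S18 and a vertical line for the fitted log2 fold change. The line lies farthest to the right for Acot1, at 1.67, and farthest to the left for Per1, at −1.41. In no row do the groups overlap, which was a condition of the choice.

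The integrin that 29P binds is made of the chains encoded by Itgav and Itgb3. Itgav stood at 40.3, 28.9 and 45.4 CPM in Veh S2, S12 and S16, an order of libraries kept for every gene below, and at 29.3 to 48.8 CPM with a median of 31.1 in the 29P libraries (log2 fold change −0.15 ± 0.17, p = 0.377 in limma and 0.488 by exact permutation). Itgb3 stood at 4.54, 3.72 and 7.36 CPM in the Veh libraries and at 2.86 to 9.82 CPM with a median of 4.43 in the 29P libraries (log2 fold change −0.04 ± 0.44, p = 0.934 in limma and 0.952 by exact permutation). For both chains the groups overlapped and S18 was the highest 29P library. With 1 library left out at a time, the sign of the Itgb3 difference turned without Veh S16 (0.24), 29P S1 (0.11) or 29P S8 (0.04). Of 25 integrin chains tested none passed the threshold, with a median of −0.12. Itgb1, the common β1 chain, differed by −0.11 ± 0.11 and Itga6, a laminin receptor chain, by −0.11 ± 0.14. None of 36 genes of the adhesion complex that links integrins to actin passed either, with a median of −0.07.

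Some genes of fatty acid handling rose. The list of PPAR-responsive genes had 7 of 27 members higher and none lower, against 0.95% of all genes higher, with a median log2 fold change of 0.26 and 25 members above 0. Among them were Acot1, Acot2, Ucp3, Plin5, Ephx2 and Pex11a. The members include Cpt1b, Slc25a20 and Ehhadh, which feed oxidation, and 2 of the 29 genes listed were below the filter.

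Acot1, a cytosolic thioesterase that splits fatty acyl-CoA into fatty acid and coenzyme A, lies at chr12:84009490-84018371 (mm10). It stood at 1.77, 2.395 and 2.56 CPM in the Veh libraries and at 5.24 to 10.6 CPM with a median of 7.09 in the 29P libraries (log2 fold change 1.67 ± 0.36, p = 0.000187 in limma and 0.0119 by exact permutation). Every 29P library was above every Veh library, and the fold on this scale was 3.18. Acot2, the mitochondrial thioesterase encoded beside it at chr12:83987861-83993873, stood at 30.2, 34.7 and 32.9 CPM in Veh and at 37.4 to 61.5 CPM with a median of 48.2 in 29P (log2 fold change 0.59 ± 0.19, p = 0.00671 in limma and 0.0119 by exact permutation), again without overlap. The pair is near-identical in sequence, so reads may be split between them by a counting step whose tool is not given in the sources used here. Against Sham Veh, TAC Veh hearts had less of both (Acot1 −2.28, limma adjusted p = 0.00125; Acot2 −0.63, limma adjusted p = 0.0294), a comparison that shares the TAC Veh libraries. The smallest exact permutation p that 6 against 3 libraries allow is 0.0119, over 84 splits.

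Ucp3, a mitochondrial carrier that is raised by fatty acids, stood at 26.99, 17.2 and 14.8 CPM in Veh and 12.5 to 62.9 CPM with a median of 47.9 in 29P (log2 fold change 1.09 ± 0.51, p = 0.0468 in limma and 0.107 by exact permutation). Here 5 of the 6 29P libraries were above every Veh library and S18, at 12.5 CPM, was below all of them. Without S18 the Ucp3 log2 fold change was 1.43 and past the threshold, whereas the call was lost in 7 of the other 8 omissions, all but that of Veh S2. Plin5, which coats lipid droplets and ties them to mitochondria, stood at 46.2, 39.3 and 33.6 CPM in Veh and 38.5 to 75.9 CPM with a median of 57.9 in 29P (log2 fold change 0.53 ± 0.24, p = 0.0398 in limma and 0.0595 by exact permutation), with S18 as the lowest 29P library. Its call was lost without Veh S12, Veh S16, 29P S1, 29P S8 or 29P S11, and with the run covariate it was 0.30 and not past the threshold. With that covariate Ucp3 was 0.72 and still past it. Ephx2, an epoxide hydrolase (0.23 ± 0.11, exact permutation p = 0.0833), lost its call in 6 omissions, with 0.16 without Veh S2 and 0.22 without S18.

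**Figure D2:**
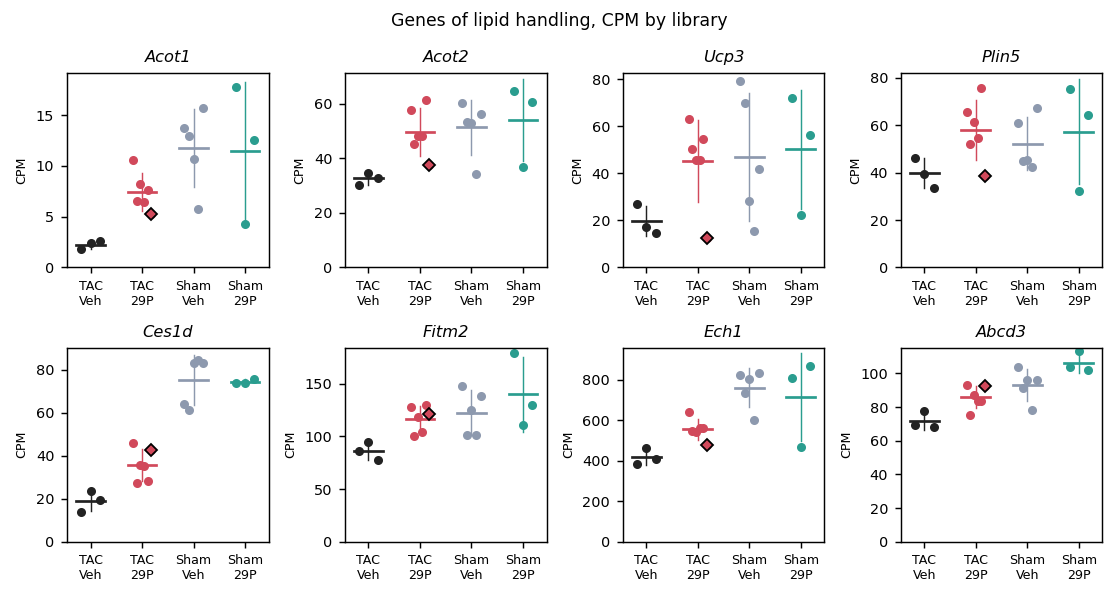
CPM of lipid genes (y axis, linear, 1 panel a gene) in the TAC Veh, TAC 29P, Sham Veh and Sham 29P libraries, with a point for each library, a horizontal line for the group mean, a vertical line for the SD and a diamond for S18. For Acot1 the TAC 29P points span 5.24 to 10.6 CPM and all lie above the TAC Veh points, while for Ucp3 the diamond lies below all other points.

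Ces1d, a carboxylesterase that hydrolyses triglyceride, had the lowest p among the 30 genes. It stood at 14.02, 23.7 and 19.2 CPM in Veh and 27.3 to 45.8 CPM with a median of 35.5 in 29P (log2 fold change 0.92 ± 0.18, p = 5.92e-05 in limma and 0.0119 by exact permutation), and the groups did not overlap. It was lower in TAC Veh than in Sham Veh hearts (−2.0, limma adjusted p = 1.11e-05). Fitm2, which helps to form lipid droplets, went from 85.9, 95.2 and 77.9 CPM in Veh to 100.3 to 130.4 CPM with a median of 119.8 in 29P (log2 fold change 0.44 ± 0.15, p = 0.00982 in limma and 0.0119 by exact permutation) without overlap, and was 0.36 and no longer past the threshold without Veh S16. With Plin5 these were the 3 of 28 triglyceride and droplet genes that rose, against 0.95% of all genes, and none fell.

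Peroxisomal genes gave 3 rises of 42, against 0.95% of all genes, and no fall. These were Ech1, an auxiliary enzyme of unsaturated fatty acid oxidation (0.41 ± 0.16, exact permutation p = 0.0119), Abcd3, a peroxisomal fatty acid transporter (0.26 ± 0.10, exact permutation p = 0.0238), and Pex11a, a factor of peroxisome division (0.30 ± 0.14, exact permutation p = 0.0119). Acsl1, the main acyl-CoA synthetase of heart, was the 1 of 30 uptake and activation genes that rose (0.32 ± 0.14, exact permutation p = 0.0714). Among abundant members that did not pass, the fatty acid translocase gene Cd36 differed by 0.26 ± 0.13 and the fatty acid binding protein gene Fabp3 by 0.07 ± 0.17. Pdk4, which holds back pyruvate oxidation, varied widely within the Veh group, with 624, 113 and 604 CPM, and differed by 0.92 ± 0.55. Calls on Ech1 were lost without Veh S2 or Veh S16, as was that on Abcd3, and those on Pex11a and Acsl1 were lost in 7 and 5 of the 9 omissions.

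The PPAR-responsive list was higher in 5 of the 6 29P libraries than in any Veh library. Its mean log2 level, centred on the Veh group, was 0.14, −0.11 and −0.04 in the Veh libraries and 0.58, 0.45, 0.37, 0.41 and 0.55 in 29P S1, S3, S8, S9 and S11, but −0.03 in S18. Without S18, 9 members rose, and over all single omissions the number was 2 to 9. It was 2 without Veh S16 and 3 without 29P S1, S8 or S11, and 6 rose with the run covariate. Of 87 nuclear-encoded genes of oxidative phosphorylation none passed, although 77 lay above 0, with a median of 0.08. The 26 genes of the TCA cycle had 1 rise, Idh3a (0.21 ± 0.10, exact permutation p = 0.0476), and 24 members above 0. The Idh3a call was lost in 5 of the 9 omissions, among them that of S18 (0.17), and with TMM or median-of-ratios scaling, no filter on low values or the run covariate (0.21).

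A few genes of glucose use changed, in both directions. Pfkfb3, an inducible activator of glycolysis, fell from 23.2, 16.3 and 22.5 CPM to 9.79 to 17.6 CPM with a median of 13.4 (log2 fold change −0.68 ± 0.21, p = 0.00423 in limma and 0.0238 by exact permutation), while its isoform Pfkfb1 rose (log2 fold change 0.99 ± 0.30, p = 0.00395 in limma and 0.0357 by exact permutation). Both held in all 9 omissions, and Pfkfb1 shares its locus with Apex2 on the opposite strand, where reads cannot be assigned without a stated strand setting. Of 50 genes of glucose uptake, glycolysis and pyruvate use, Pfkfb1 rose and Pfkfb3 and the glycogen-targeting subunit gene Ppp1r3c fell (−0.44 ± 0.19, exact permutation p = 0.0476). Of all genes 0.95% rose and 1.11% fell. Of 32 genes of branched-chain amino acid and ketone breakdown 2 rose, among them Mcee (0.20 ± 0.09, exact permutation p = 0.0238), which had no call in 6 omissions. Prkab2, a regulatory subunit of the energy sensor AMPK, fell (−0.31 ± 0.12, exact permutation p = 0.0119) as the 1 of 42 metabolic regulators past the threshold, and was −0.28 and no longer past the threshold without Veh S2.

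**Figure D3:**
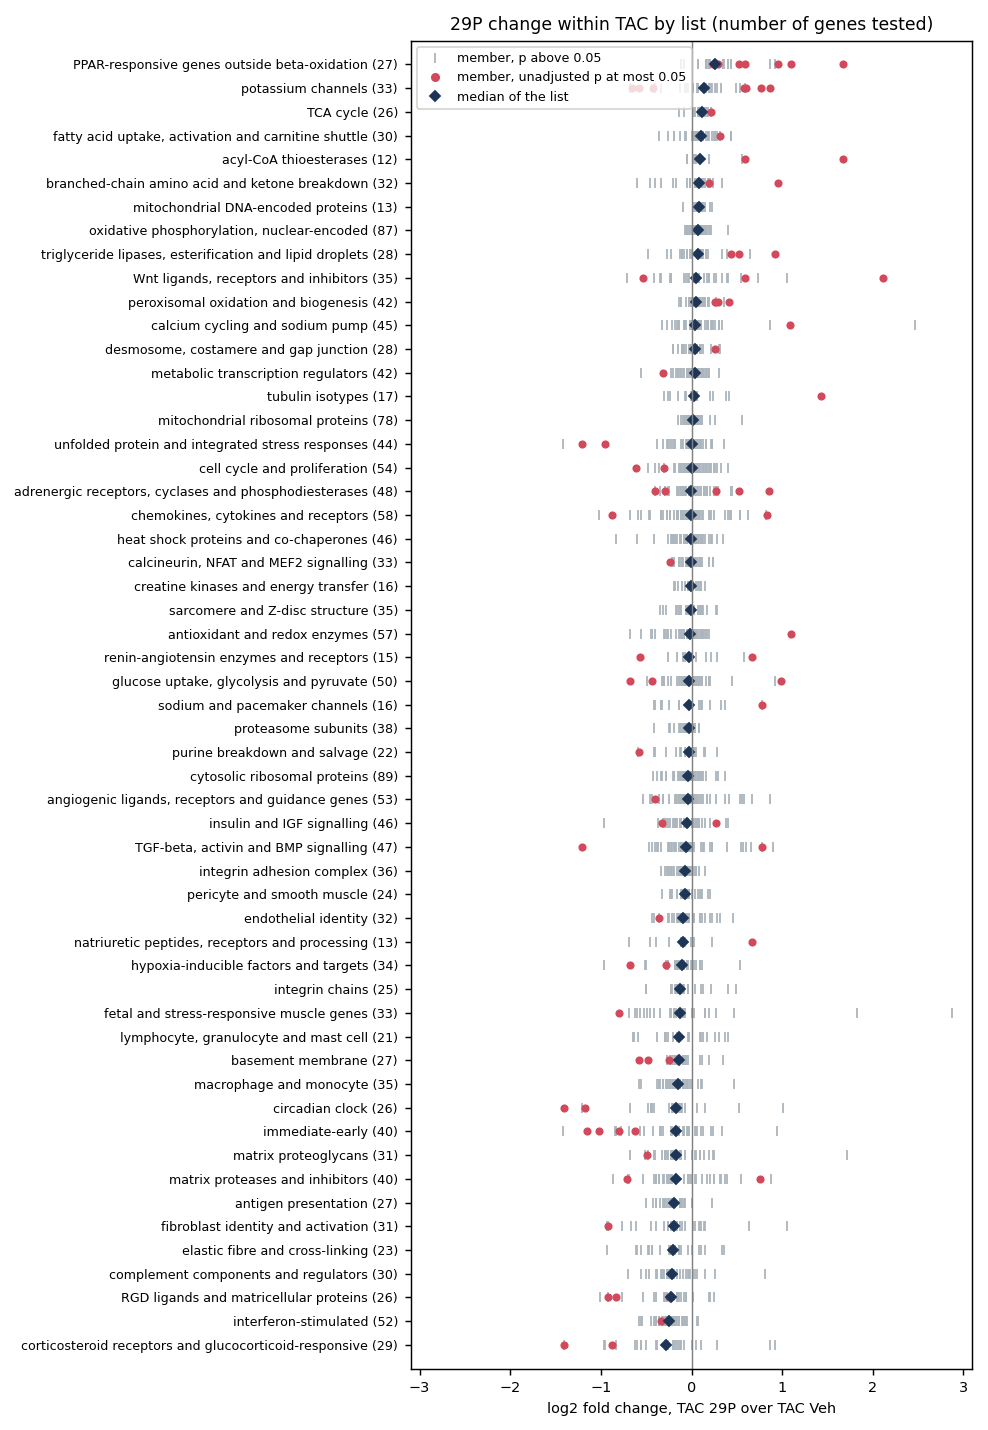
Log2 fold change (x axis, TAC 29P minus TAC Veh) of every tested member of the functional lists shown (rows), with members past the threshold marked and each list's median drawn. The PPAR-responsive list has its median at 0.26 and its 7 marked members to the right of 0, and the interferon-stimulated list has its median at −0.25 with 1 marked member.

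Adrenergic genes and potassium channels changed in both directions. Adra1b, the α1B-adrenergic receptor, at chr11:43774606-43901210, stood at 8.68, 8.902 and 7.04 CPM in Veh and 12.3 to 16.99 CPM with a median of 14.9 in 29P (log2 fold change 0.85 ± 0.22, p = 0.001299 in limma and 0.0119 by exact permutation). The groups did not overlap and the call held in all 9 omissions and without S18. Adrb1, the main β-adrenergic receptor of myocytes, had 1 low Veh library, with 15.8, 12.9 and 6.88 CPM in Veh and 12.9 to 18.4 CPM with a median of 16.2 in 29P (log2 fold change 0.52 ± 0.24, p = 0.0403 in limma and 0.0476 by exact permutation), and without that library, S16, the change was 0.18 and no longer past the threshold. Pde3a, a cAMP phosphodiesterase, rose (0.27 ± 0.11, exact permutation p = 0.0714), whereas Pde1c, a calcium-dependent phosphodiesterase (log2 fold change −0.40 ± 0.13, p = 0.00788 in limma and 0.0119 by exact permutation), and Prkar1a, a regulatory subunit of protein kinase A (−0.29 ± 0.13, exact permutation p = 0.0357), fell. These were 3 rises and 2 falls among 48 genes, against 0.95% higher and 1.11% lower of all genes, with a median of −0.01. Pde1c was −0.29 and no longer past the threshold without Veh S12, and Adrb1, Pde3a and Prkar1a each lost their calls in 4 or 5 omissions. Prkar1a was −0.17 and no longer past the threshold without Veh S2. Without S18 Pde3a was 0.21 and Prkar1a −0.26, neither past the threshold. With the run covariate Adrb1 was 0.24 and not past it.

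Kcnk2, the stretch-activated channel TREK-1, fell. It stood at 7.12, 5.47 and 7.46 CPM in Veh and 3.65 to 5.36 CPM with a median of 4.03 in 29P (log2 fold change −0.66 ± 0.23, p = 0.0115 in limma and 0.0119 by exact permutation) with no overlap, and without Veh S16 was −0.57 and no longer past the threshold. Of 33 potassium channel genes 4 rose and 3 fell, against 0.95% and 1.11% of all genes, with a median of 0.14. The rises were Kcna2 (0.87 ± 0.28, exact permutation p = 0.0595), Kcnv2 (0.77 ± 0.33, exact permutation p = 0.143), Kcnj2, which carries the inward rectifier current of resting myocytes (0.60 ± 0.27, exact permutation p = 0.0833), and Kcnj5, a channel opened by acetylcholine in atrial and nodal cells (0.58 ± 0.24, exact permutation p = 0.0952). The falls beside Kcnk2 were Kcnk6 (−0.43 ± 0.18, exact permutation p = 0.0238) and Kcnn3 (−0.58 ± 0.26, exact permutation p = 0.0357). Veh S16 was the low library of the rises, with Kcnj2 at 25.7, 23.8 and 9.33 CPM in Veh against 19.5 to 31.7 CPM with a median of 28.2 in 29P, and without it Kcnj2 was 0.13, Kcnj5 0.29, Kcna2 0.66 and Kcnv2 0.46, none past the threshold. Kcnk6 was −0.25 and Kcnn3 −0.46 in that omission, also not past it. Without Veh S2 Kcnv2 was 0.49 and no longer past the threshold, and without Veh S12 Kcnv2 and Kcnj5 rose further, to 1.36 and 0.89. Without S18 Kcnj5 was 0.46 and Kcnv2 0.71, neither past the threshold. With the run covariate Kcnv2 alone of the 7 stayed past the threshold, with Kcnk2 at −0.48, Kcnk6 at −0.34, Kcnn3 at −0.44 and Kcnj2 at 0.32. Over the single omissions the list held 0 to 6 rises and 1 to 4 falls. The pacemaker channel gene Hcn4 was the 1 of 16 sodium and pacemaker channel genes that rose (0.77 ± 0.34, exact permutation p = 0.0714). It was 0.48 without Veh S16, 0.67 without S18 and 0.53 with the run covariate, past the threshold in none of them, and also lost its call without 29P S1 or S9. Casq1, a calcium store protein, was the 1 of 45 calcium cycling genes that rose, from 15.2, 8.85 and 8.16 CPM in Veh to 10.8 to 30.9 CPM with a median of 23.1 in 29P (log2 fold change 1.09 ± 0.35, p = 0.00551 in limma and 0.0238 by exact permutation), in all 9 omissions. With the run covariate Casq1 was 0.41 and not past the threshold. The calcium pump gene Atp2a2 differed by 0.24 ± 0.15 and its inhibitor Pln by 0.18 ± 0.13.

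**Figure D4:**
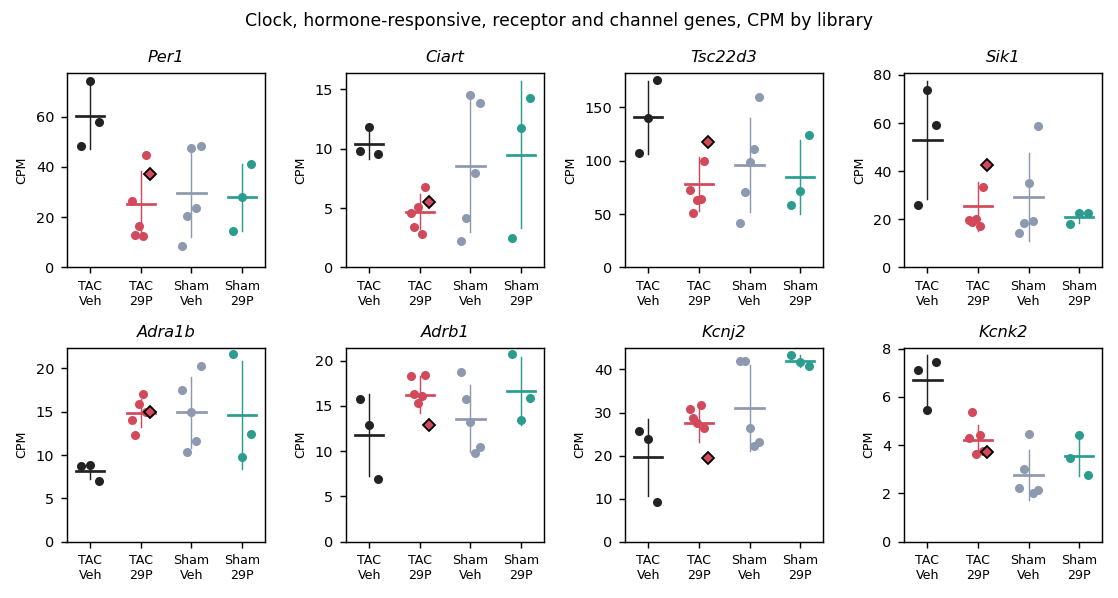
CPM of clock, hormone-responsive, receptor and channel genes (y axis, linear, 1 panel a gene) in the 4 groups, drawn as for the lipid genes. Per1 lies between 48.4 and 73.95 CPM in TAC Veh and between 12.6 and 44.6 CPM in TAC 29P, and Adra1b between 7.04 and 8.902 CPM in TAC Veh and between 12.3 and 16.99 CPM in TAC 29P.

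Per1 and Ciart, repressors of the circadian clock, were the largest falls. The clock is a loop in which CLOCK and BMAL1 bind E-boxes such as CACGTG and switch on their own repressors, and Per1 is also induced by glucocorticoids. Stretches of 250 bases before a RefSeq start of each gene (GRCm38.p6) are shown because these are the elements through which the loop acts, with CACGTG in capitals, for Per1 at chr11:69098699-69098948 on the plus strand and for Ciart at chr3:95882229-95882478 on the minus strand.
Per1: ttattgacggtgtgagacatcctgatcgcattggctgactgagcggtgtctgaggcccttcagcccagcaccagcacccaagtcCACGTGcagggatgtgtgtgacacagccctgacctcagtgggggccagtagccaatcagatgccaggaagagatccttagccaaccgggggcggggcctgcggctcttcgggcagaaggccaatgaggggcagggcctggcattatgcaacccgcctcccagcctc
Ciart: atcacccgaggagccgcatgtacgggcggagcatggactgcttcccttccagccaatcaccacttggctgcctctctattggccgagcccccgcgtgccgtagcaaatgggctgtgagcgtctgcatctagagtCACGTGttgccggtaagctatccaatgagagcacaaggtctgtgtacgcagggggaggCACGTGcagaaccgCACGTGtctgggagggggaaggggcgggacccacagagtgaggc
The Per1 stretch holds the E-box once, beginning 166 bases before the start, and that of Ciart holds it 3 times, at 116, 58 and 44 bases. On either strand, CACGTG occurs in 7.15% of the 32851 RefSeq windows of 300 bases around a start. Counted by gene, 8.09% of 27025 genes have it in a window, as do 6 of the 22 genes of the clock list that have one (Bhlhe41, Ciart, Cry1, Per1, Tef and Tspan4, the last a tetraspanin gene and no part of the loop). The D-box TTATGNAA, searched the same way, occurs in 3.99% of genes and in 3 of the 22. A match is a run of letters and was not tested as a binding site.

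Per1 stood at 48.4, 73.95 and 57.8 CPM in the Veh libraries and at 26.3, 13, 16.6, 12.6, 44.6 and 37.2 CPM in 29P S1, S3, S8, S9, S11 and S18 (log2 fold change −1.41 ± 0.49, p = 0.00995 in limma and 0.0238 by exact permutation). All 29P libraries were below all Veh libraries, with S11 and S18 nearest to them. Ciart stood at 9.82, 11.8 and 9.57 CPM in Veh and 2.85 to 6.802 CPM with a median of 4.85 in 29P (log2 fold change −1.18 ± 0.54, p = 0.0411 in limma and 0.0119 by exact permutation), also without overlap. The Per1 call held in all 9 omissions, but that of Ciart was lost in 6 of them (without Veh S2, S12 or S16 or 29P S1, S3 or S9). With the run covariate Per1 was −0.83 and Ciart −0.40, neither past the threshold, and the hour at which hearts were taken is not given in the sources used here. A part of run or hour in these differences was not tested further. Over 26 clock genes the median was −0.17, with 22 members below 0 and 2 past the threshold, 5 without S18 and none with the run covariate. Leaving out S18 also raised the lower genes among all tested from 180 to 266. Tef differed by −0.44 ± 0.24 and Nr1d2 by −0.21 ± 0.19.

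Glucocorticoid-responsive and immediate-early genes fell in part. Tsc22d3, the glucocorticoid-induced leucine zipper, stood at 107, 140.5 and 175 CPM in Veh and 51.05 to 117 CPM with a median of 68.4 in 29P (log2 fold change −0.88 ± 0.34, p = 0.0179 in limma and 0.0357 by exact permutation), and with Per1 made the 2 of 29 glucocorticoid-responsive genes that fell. Without S18, 6 of them fell, and without Veh S16 Tsc22d3 was −0.71 and no longer past the threshold. Of 40 immediate-early genes 4 fell and none rose. The share of all genes lower, for comparison with this list and the glucocorticoid-responsive list, was 1.11%. The immediate-early falls were the transcription factors Fosl2 (−0.62 ± 0.27, exact permutation p = 0.131), Egr2 (−1.16 ± 0.54, exact permutation p = 0.155) and Csrnp1 (−0.80 ± 0.31, exact permutation p = 0.0714) and the kinase Sik1 (−1.02 ± 0.39, exact permutation p = 0.0595). Sik1 stood at 25.8, 73.6 and 59.3 CPM in Veh and 17.3 to 42.7 CPM with a median of 19.9 in 29P, so Veh S2 lay within the 29P range. Fitted with the run, Tsc22d3 was −0.55 and still past the threshold, while Sik1 was −0.58 and Fosl2 −0.36. The immediate-early count was 7 without S18, 0 to 7 over all single omissions and 0 with the run covariate. The counts of both lists without S18 stand beside 266 lower genes among all tested in that omission, against 180 in the main fit.

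The RGD proteins that αvβ3 binds and other matricellular proteins had 4 falls and no rise among 26 genes, against 1.11% of all genes lower, with a median of −0.22. They were Postn, a marker of activated fibroblasts (log2 fold change −0.93 ± 0.41, p = 0.0367 in limma and 0.179 by exact permutation), Ccn5 (−0.84 ± 0.39, exact permutation p = 0.131), Sparcl1 (−0.23 ± 0.10, exact permutation p = 0.0238) and the laminin-binding Nid1 (−0.24 ± 0.10, exact permutation p = 0.0357). Postn stood at 1153, 411 and 969.9 CPM in Veh and 173 to 1030 CPM with a median of 377 in 29P. Veh S12 lay low and 29P S3 and S18 lay high, so the groups overlapped. Postn was −0.64 and no longer past the threshold without Veh S2, an omission that left none of the 4 past the threshold and Ccn5 at −0.49. Without S18 Sparcl1 was −0.21 and no longer past the threshold. Under the run covariate Postn and Ccn5 stayed past it, at −1.29 and −1.11, and Sparcl1 and Nid1 did not. For Postn and Ccn5 that fit is no separate check. Veh S2, the highest Veh library of both, is the only Veh library in the run of most 29P libraries. Abundant matrix genes that did not pass differed by −0.27 ± 0.21 for Sparc, −0.15 ± 0.32 for Ccn1 and −0.19 ± 0.22 for the proteoglycan Dcn.

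Basement membrane genes gave 3 falls of 27, against the same 1.11%, namely Nid1 and the α3 and α4 chains of collagen IV. Col4a3 stood at 16.5, 15.4 and 15.7 CPM in Veh and 9.03 to 11.6 CPM with a median of 10.5 in 29P (log2 fold change −0.58 ± 0.26, p = 0.0376 in limma and 0.0119 by exact permutation), and Col4a4, which shares its promoter region, at 26.6, 22.6 and 22.7 and 15.02 to 20.6 CPM with a median of 17.1 (log2 fold change −0.47 ± 0.19, p = 0.02303 in limma and 0.0119 by exact permutation). Neither pair of groups overlapped. Col4a4 was −0.40 and no longer past the threshold without Veh S2, and Col4a3 lost its call in 7 omissions. Elsewhere in the matrix, Sulf1, which trims heparan sulfate, fell (−0.49 ± 0.21, exact permutation p = 0.119) as the 1 of 31 proteoglycan genes, the protease Adamts15 rose (log2 fold change 0.75 ± 0.27, p = 0.0124 in limma and 0.0119 by exact permutation) and Adamts1 fell (−0.71 ± 0.32, exact permutation p = 0.179) among 40 protease genes, and none of 23 elastic fibre genes passed. Adamts15 was 0.62 and no longer past the threshold without Veh S16, and Sulf1 and Adamts1 lost their calls in 4 and 6 omissions. Adamts1 was −0.38 and no longer past the threshold without Veh S16 but −1.07 and past it without Veh S2. Given the run as a covariate, Adamts15 was 0.34, Adamts1 −0.45, Col4a3 −0.56 and Col4a4 −0.44, none past the threshold. Among 31 fibroblast genes Postn alone fell, and none of 24 pericyte and smooth muscle genes did. Bulk RNA cannot tell fewer cells of a type from less RNA per cell.

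In the endothelium Ptprb, a phosphatase that restrains the TIE2 receptor, fell from 233, 211 and 290.3 CPM in Veh to 168 to 209 CPM with a median of 189.6 in 29P (log2 fold change −0.36 ± 0.14, p = 0.0226 in limma and 0.0119 by exact permutation) without overlap. It was the 1 of 32 endothelial genes past the threshold, and without Veh S16 it was −0.23 and no longer past the threshold. After the run was added to the fit, it was −0.18, again not past it. Amot, which binds angiostatin, was the 1 of 53 angiogenic genes that fell (−0.40 ± 0.18, exact permutation p = 0.0119), and Vegfa differed by −0.04 ± 0.16. Hif1a, the oxygen-sensing transcription factor, fell with Pfkfb3 among 34 hypoxia genes (−0.28 ± 0.12, exact permutation p = 0.0357). Xdh, xanthine dehydrogenase of purine breakdown, stood at 104, 112 and 104 CPM in Veh and 57 to 83.4 CPM with a median of 73.8 in 29P (log2 fold change −0.58 ± 0.18, p = 0.00476 in limma and 0.0119 by exact permutation), without overlap and in all 9 omissions. Under the run covariate Xdh was −0.32 and not past the threshold, and Amot and Hif1a lost their calls in 5 omissions each. Neither Amot nor Hif1a was past it with TMM, median-of-ratios or mitochondrial-free totals, or with the run covariate (−0.41 and −0.30).

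Most immune lists lay below 0, as did 55.4% of all genes, with almost no member past the threshold. The chemokine, cytokine and receptor list was split, with a median of −0.01, 28 members above 0 and 30 below. Of 52 interferon-stimulated genes 50 lay below 0, with a median of −0.25, and Gbp2 fell (−0.34 ± 0.16, exact permutation p = 0.179), with its call lost in 5 omissions. Gbp2 was −0.13 and no longer past the threshold without Veh S2 and −0.53 and past it without Veh S12. The list mean was 0.49, −0.52 and 0.03 in Veh S2, S12 and S16 and −0.50 to 0.10 in the 29P libraries, all within the Veh range. Without Veh S2 the median was −0.01, and with the run covariate it was −0.48 with 22 members lower. The same covariate raised the lower genes among all tested from 180 to 327. Veh S2, the highest library of the list, is the only Veh library in the run of most 29P libraries, so that fit is no separate check. None of 35 macrophage genes (median −0.15, 31 below 0, but 0.04 without Veh S2), 27 antigen presentation genes (median −0.19, 0.01 without Veh S2) or 21 lymphocyte, granulocyte and mast cell genes passed. Of 58 chemokine, cytokine and receptor genes, the scavenging receptor gene Ackr4 fell and Cxcl5 rose (0.84 ± 0.36, exact permutation p = 0.0476) at levels under 1 CPM. Without S18 Cxcl5 was 0.70 and no longer past the threshold. Ackr4 stood at 19.1, 12.7 and 13.1 CPM in Veh and 6.79 to 9.07 CPM with a median of 7.78 in 29P (log2 fold change −0.87 ± 0.27, p = 0.00443 in limma and 0.0119 by exact permutation), without overlap and in all 9 omissions, although it shares its locus with Acad11 on the opposite strand.

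All 7 red blood cell transcripts fell in 29P hearts, against 1.11% of all genes, with a median of −1.17. Hbb-bs, an adult β-globin gene, stood at 2284, 1361 and 1638 CPM in Veh and at 690.3, 1969, 1052, 483 and 562 CPM in 29P S1, S3, S8, S9 and S11 and 671 CPM in S18 (log2 fold change −1.11 ± 0.40, p = 0.0118 in limma and 0.0714 by exact permutation). S3 lay among the Veh libraries and the other 29P libraries below them. Alas2, the first enzyme of haem synthesis in red cell precursors, stood at 58.3, 30.04 and 31.7 CPM in Veh and 9.28 to 32.7 CPM with a median of 14.7 in 29P (log2 fold change −1.24 ± 0.38, p = 0.00463 in limma and 0.0595 by exact permutation). The globin genes share reads with near-identical copies and count as 1 signal, which made 0.305 to 0.493% of all reads in the Veh and 0.103 to 0.412% in the 29P libraries. Without Veh S2, 2 of the 7 remained past the threshold and Hbb-bs was −0.90 and no longer past the threshold. The list was chosen as a marker of blood left in the tissue, and its part in other results was not tested.

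**Figure D5:**
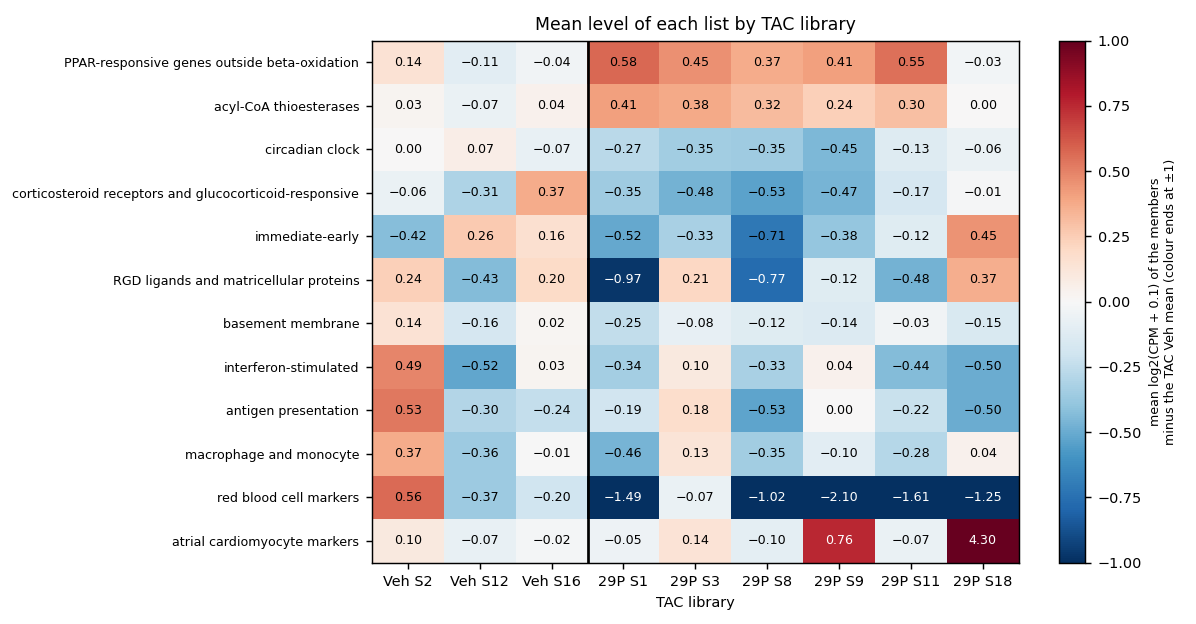
Mean log2 level of each list (rows) in the 9 TAC libraries (columns), centred on the mean of the Veh libraries, with the colour scale ending at −1 and 1. The PPAR-responsive row is above 0.3 in 29P S1, S3, S8, S9 and S11 and at −0.03 in S18, and the red blood cell row is below −1 in every 29P library but S3.

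Muscle stress genes had 1 call. Xirp2, a protein of the intercalated disc, was the 1 of 33 fetal and stress-responsive muscle genes that fell, from 5914, 3180 and 3544 CPM in Veh to 1535 to 3336 CPM with a median of 2378 in 29P (log2 fold change −0.80 ± 0.25, p = 0.00438 in limma and 0.0357 by exact permutation), and without Veh S2, its highest library, it was −0.52 and no longer past the threshold. Nppa and Nppb, the natriuretic peptide genes, differed by −0.69 ± 0.81 and −0.46 ± 0.25, and Myh6, the adult α myosin heavy chain, by 0.15 ± 0.21. Nppa is also an atrial transcript, and its 29P values spanned 601 to 3373 CPM. None of 35 sarcomere genes passed. The peptidase gene Mme rose (0.67 ± 0.21, exact permutation p = 0.0357) and the angiotensin converting enzyme gene Ace fell (−0.57 ± 0.24, exact permutation p = 0.0119). Mme was 0.47 and no longer past the threshold without Veh S2, and Ace lost its call without Veh S2, 29P S1 or 29P S8.

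Several of the largest changes belonged to none of these groups. Aqp4, a water channel, stood at 0.898, 1.12 and 0.9596 CPM in Veh and 1.44 to 4.22 CPM with a median of 2.63 in 29P (log2 fold change 1.23 ± 0.27, p = 0.0002305 in limma and 0.0119 by exact permutation), and Aif1l, an actin-binding protein gene at chr2:31950139-31973442, at 0.948, 1.08 and 0.853 and 1.63 to 3.71 CPM with a median of 2.32 (log2 fold change 1.21 ± 0.30, p = 0.000752 in limma and 0.0119 by exact permutation). For both, S18 was the highest library and no groups overlapped, and without S18 they were 1.08 and 1.09 and still past the threshold. Tbx5, a transcription factor that is richer in atria than in ventricles, stood at 12.3, 11.1 and 5.33 CPM in Veh and 13.6 to 28.5 CPM with a median of 14.6 in 29P (log2 fold change 0.88 ± 0.30, p = 0.00938 in limma and 0.0119 by exact permutation), with S16 the lowest Veh library and S18 the highest 29P library. Without S16 Tbx5 was 0.50 and no longer past the threshold, and without S18 it was 0.72 and still past it. When run entered the fit, Tbx5 was 0.35 and not past the threshold. Bmp2, a growth factor of the TGF-β family, rose (log2 fold change 0.77 ± 0.29, p = 0.0158 in limma and 0.0476 by exact permutation) with S18 highest at 4.97 CPM, and was 0.72 and no longer past the threshold without Veh S12. Further rises were those of Whrn (0.73 ± 0.27, exact permutation p = 0.0119), BC025920 (0.76 ± 0.24, exact permutation p = 0.0119), Aldh1l2, a mitochondrial folate enzyme (0.69 ± 0.30, exact permutation p = 0.0357), Lgals4, a galectin (0.66 ± 0.27, exact permutation p = 0.0119), and Ddc, the aromatic amino acid decarboxylase (0.65 ± 0.21, exact permutation p = 0.0238). BC025920 was 0.39 and no longer past the threshold without Veh S16, Lgals4 lost its call without Veh S2 or S16, and Aldh1l2 lost it in 5 omissions, with 0.50 without S18. Under the run covariate Bmp2 was 0.50, BC025920 0.56 and Aldh1l2 0.34, none past the threshold.

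Among falls outside the groups, Tent5c, a poly(A) polymerase, stood at 11.1, 6.55 and 8.05 CPM in Veh and 2.72 to 5.22 CPM with a median of 3.905 in 29P (log2 fold change −1.08 ± 0.39, p = 0.0131 in limma and 0.0119 by exact permutation), and was −0.88 and no longer past the threshold without Veh S2. Runx3, a transcription factor of lymphocytes, fell (log2 fold change −1.02 ± 0.46, p = 0.0391 in limma and 0.0238 by exact permutation), with Veh S16 the highest library. BE692007, which lies opposite the macrophage gene Ms4a6c, stood at 4.34, 3.499 and 6.03 CPM in Veh and 1.52 to 3.07 CPM with a median of 2.23 in 29P (log2 fold change −0.98 ± 0.25, p = 0.000863 in limma and 0.0119 by exact permutation). Hhipl1 fell (−0.98 ± 0.36, exact permutation p = 0.0238) and was −0.83 and no longer past the threshold without Veh S16. The others were Pacsin1 (−0.87 ± 0.36, exact permutation p = 0.0238), the kinase gene Nuak2 (−0.72 ± 0.33, exact permutation p = 0.0238), Fam117b (−0.71 ± 0.32, exact permutation p = 0.0119), Col28a1 (−0.71 ± 0.30, exact permutation p = 0.0119), Abhd15 (−0.70 ± 0.32, exact permutation p = 0.0119) and Ccne1, which drives entry into S phase (−0.61 ± 0.27, exact permutation p = 0.0357). With Ccnd2 (−0.31 ± 0.11, exact permutation p = 0.0476), Ccne1 made 2 falls among 54 cell cycle genes, and Ccnd2 was −0.26 and no longer past the threshold without Veh S2. Runx3, Pacsin1, Nuak2, Fam117b, Col28a1, Abhd15 and Ccne1 each lost their calls in 4 to 6 of the 9 omissions. Fam117b was −0.47 without Veh S16, and Abhd15 −0.61 without S18. Abhd15 also shares its locus with Taok1 and Trp53i13 on the opposite strand. Fitted with the run, Fam117b was −0.36 and Hhipl1 −0.59, neither past the threshold.

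In the remaining lists, the stress response genes Gdf15 (−1.21 ± 0.51, exact permutation p = 0.107) and Chac1 (−0.96 ± 0.41, exact permutation p = 0.0952) fell among 44 genes of the unfolded protein and integrated stress responses. Of 35 Wnt pathway genes the ligand gene Wnt5a (log2 fold change 0.59 ± 0.20, p = 0.00802 in limma and 0.0119 by exact permutation) rose and its receptor gene Fzd4 fell (log2 fold change −0.54 ± 0.19, p = 0.00978 in limma and 0.0476 by exact permutation), and the secreted inhibitor gene Sfrp5 passed at a level too low for a fold, with 0, 0.0489 and 0 CPM in Veh. The phosphatase subunit gene Ppp3cc fell as the 1 of 33 calcineurin pathway genes (−0.23 ± 0.10, exact permutation p = 0.0238). Of 46 insulin and IGF genes Tbc1d4, which gates glucose transporter traffic, rose (0.27 ± 0.12, exact permutation p = 0.0595) and Socs2, which restrains growth hormone signalling, fell (−0.32 ± 0.14, exact permutation p = 0.0595). The platelet tubulin gene Tubb1 rose (1.43 ± 0.68, exact permutation p = 0.167) among 17 tubulin genes, with 0, 0.538 and 0.693 CPM in Veh. Without Veh S2, its lowest library, it was 0.48 and no longer past the threshold, and without S18, its highest 29P library, 1.08 and not past it. None passed of 46 heat shock, 38 proteasome, 89 cytosolic ribosome, 78 mitochondrial ribosome, 13 mitochondrial-encoded, 30 complement or 16 creatine kinase and energy transfer genes. Wnt5a and Fzd4 were 0.47 and −0.32 without Veh S16 and no longer past the threshold, Gdf15 and Chac1 lost their calls in 4 omissions each, and the others in 3 or 4. Gdf15 was −1.86 without Veh S12. Tbc1d4 was 0.16 without Veh S16 and 0.23 without S18, and Sfrp5 lost its call without S18. In the fit with run, Chac1 was −0.52, Wnt5a 0.36 and Fzd4 −0.27, none past the threshold.

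The change with 29P differed between TAC and Sham hearts for 463 genes (2.85%) at an unadjusted limma p of at most 0.05, and for none after adjustment (lowest limma adjusted p = 0.999). That share is again below the 5% that the threshold passes when no gene differs. In Sham hearts 29P changed Acot1 by a log2 fold change of −0.18, Ces1d by 0.00, Adra1b by −0.07, Per1 by 0.04 and Aqp4 by 0.94. Aqp4 thus had differences of the same sign in both, with 1.23 in TAC hearts. The interaction p in limma was 0.00206 for Acot1, 0.00198 for Ces1d, 0.0104 for Adra1b, 0.0548 for Per1 and 0.462 for Aqp4. These genes were chosen on the TAC contrast, which is part of the interaction, so the values describe them and are no independent test. The Sham comparison is also uneven in atrial transcripts. Sham Veh includes S19 and S20, whereas Myl7 reached at most 0.784 CPM in the Sham 29P libraries.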

How the data were processed

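The data were 17 bulk RNA libraries of ventricular apex tissue, of which 9 came from TAC hearts. Per the study's methods and processing notes the authors used STAR 2.3.7 within Partek Flow to align poly(A)-selected reads (build mm10), and each deposited CPM value carries an added 0.0001; the counting tool and strand setting are not given in the sources used here. The authors tested with DESeq2, whose results were not used here, and whole reads could not be recovered from the CPM (78.9 to 81.7% of low values were whole multiples, within 0.02, of the estimated value of 1 read). Depth was estimated from that step at 14.2 to 23.8 M reads a library. Gene starts are as deposited and ends are 1 base before the deposited stop, since the deposited length is stop minus start. Other named genes, such as Abhd15, Ciart, Fam117b, Aldh1l2 and Kcnk2, also overlap a gene on the opposite strand. Ces1d overlaps Gm45909 on its own strand. Without a stated strand setting and counting tool, the source of reads in these overlaps is not known.

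The constant 0.0001 was subtracted, genes with CPM of at least 0.5 in at least 3 libraries were kept (16218 of 21798), and log2(CPM + 0.1) was fitted with limma 3.58.1 in R 4.3.3 (4 group means, trended variance, 13 residual degrees of freedom). Fold changes on this scale understate those of low genes. Genes were called at an unadjusted p of 0.05, the study's own limit, with Benjamini-Hochberg adjustment over all genes beside it. Single genes were also compared by a two-sided exact permutation of the 9 TAC libraries. Named genes were the 15 largest rises and falls past the threshold with a mean of at least 1 CPM over TAC libraries and no overlap (predicted genes left out), list members past the threshold, the 2 most abundant members of each list, and Itgav and Itgb3. Some genes that met these rules are not reported here. The members and the gene lists were chosen with earlier results of these data known. Alternatives were other constants, filters, scalings (TMM with trims of 30% for log ratios and 5% for mean levels, median-of-ratios, and totals without mitochondrial-encoded genes), only the TAC libraries, the label run as covariate, and each library left out. Leaving out S18, S19 and S20 together, or S14, was added after seeing the data. The model was tested on simulated data. Promoter stretches are from RefSeq (GRCm38.p6) and motifs were searched on both strands. Figures used Python 3.11.15, numpy 2.4.6, pandas 2.3.3 and matplotlib 3.10.9.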

Additional observations from a re-analysis of the deposited data

Results flagged for a closer look

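Of 98 values tested for a library far from the other 5 of the TAC 29P group, 4 had one, and chance gives about 1 in 20. In 3 of them it was S18, the library with atrial transcripts, with Aldh1l2 at 11.5 CPM and Itgav at 48.8 CPM as the highest and Ucp3 at 12.5 CPM as the lowest of the group. Without S18 the log2 fold change of Aldh1l2 was 0.50 and no longer past the threshold, and that of Itgav was −0.26. The fourth was Casq1, lowest in S11 at 10.8 CPM. The part of atrial tissue in these values was not tested.

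The change with 29P differed between TAC and Sham hearts for 24 of 95 genes, against 2.85% of all genes tested. This used the interaction term of the same limma fit at an unadjusted p of at most 0.05, and none passed after adjustment. The 95 are Itgav, Itgb3 and the genes reported for being past the threshold within TAC. The change in TAC minus the change in Sham, on the log2 scale, was 1.85 for Acot1, 1.6 for Aif1l, 1.35 for Tbx5, 1.06 for Adamts15, 0.92 for Ces1d, 0.92 for Adra1b and 0.88 for Bmp2 among the largest rises. It was 1.61 for Casq1, 1.25 for Cxcl5, 0.54 for Ech1, 0.42 for Mcee and, at levels near 0 CPM, 3.09 for Sfrp5. Among the falls it was −0.92 for BE692007, −1.09 for Ackr4, −1.04 for Kcnk2, −0.71 for Pfkfb3, −0.71 for Xdh, −0.61 for Amot and −0.60 for Col4a4. It was −0.56 for Pde1c, −0.49 for Ptprb, −0.45 for Prkab2 and −0.40 for Hif1a, and −1.57 for the red cell anion exchanger gene Slc4a1. The genes had been chosen on the TAC contrast, which the interaction contains, so their share is no independent test. Atrial transcripts were present in Sham Veh S19 and S20 and near 0 CPM in Sham 29P. Tbx5, richer in atria, had a mean of 21.02 CPM in Sham Veh and 14.81 CPM in Sham 29P. The part of atrial tissue in the interaction of single genes was not tested.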

How the results depend on the processing

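The 154 higher and 180 lower genes became 256 and 337 with no filter on low values, 277 and 417 with the 9 TAC libraries alone, and 0 and 0 after Benjamini-Hochberg adjustment, and with CPM of at least 1 in every TAC library 101 were higher. With the label run as covariate 327 were lower, and with S18, S19 and S20 left out, chosen after seeing the data, 317 were lower. Single omissions gave 65 (Veh S16) to 265 (Veh S12) higher and 113 (29P S8) to 366 (Veh S12) lower genes, with 114 lower without Veh S2 and 116 without 29P S1. The 463 genes of the interaction became 709 with no filter, 206 with the run covariate and 0 after adjustment, and 309 to 1431 over the single omissions, the highest without Sham 29P S4. Of the recomputed values of named genes 1588 kept their direction and call, 392 kept only their direction and 3 reversed, all of them of Itgb3 (−0.24 to 0.24 over the single omissions, with 0.24 without Veh S16, 0.11 without 29P S1 and 0.04 without 29P S8). TMM, median-of-ratios and mitochondrial-free totals moved the median of all genes to 0.01, 0.00 and 0.00, and TMM gave 226 higher and 169 lower genes, against 154 and 180. Adamts1, Amot, Hif1a, Idh3a, Socs2, Ppp3cc, Ccne1, Gbp2, Mcee, Ephx2 and Tubb1 lost their calls with TMM and with median-of-ratios scaling. Fam117b lost its call with TMM and Pde3a with median-of-ratios. No paired analysis was possible because each animal number occurs in 1 group only. Depth limits genes listed at 0 in most Veh libraries, such as Sfrp5, which have no fold here.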
